A study of Mus musculus with 9 samples.

Results

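The genes described here encode the respiratory chain and the ATP synthase: 13 genes of the mitochondrial genome and 46 nuclear genes, 59 of the 21884 genes in a table of mouse lung mRNA levels. They were taken by symbol from a fixed list, and older Atp5 names were matched through the Ensembl identifier. By complex, the nuclear genes comprised 17 of complex I, 4 of complex II, 6 of complex III, 12 of complex IV and 7 of complex V, and the mitochondrial genes 7 of complex I, 1 of complex III, 3 of complex IV and 2 of complex V. Of the 59, 58 passed a filter of 0.5 FPKM (a fragment count scaled by gene length and library depth) in at least 3 libraries. The gene that did not was mt-Atp8, listed at 0 in every library. Atp5o had a further row under another identifier, at 0 throughout, so the 59 genes took 60 rows.

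The libraries came from lungs of male BALB/c mice, 6 weeks old on arrival, in 3 groups of 3. OVA+PM2.5 mice were sensitised with 50 µg ovalbumin (OVA) and 1 mg aluminium hydroxide by intraperitoneal injection on days 0, 7 and 14, were challenged intranasally with 400 µg OVA each day between day 21 and day 27, and also had a suspension of fine particulate matter (PM2.5) dropped into the nose daily, starting 7 days ahead of day 0 and ending on the eve of lung collection. OVA mice had the same ovalbumin course without particles, and Naive mice had saline by the same routes. Lungs were taken on day 28. Neither a genetic change nor a sorted cell type was part of the design, and the labels do not say whether each library was 1 animal, so p-values measure the spread between libraries. Where 3 library values of a group are given, they stand for replicates 1, 2 and 3.

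The respiratory chain sits in the inner mitochondrial membrane. Complex I takes electrons from NADH and complex II from succinate, complex III passes them to cytochrome c, complex IV hands them to oxygen, and the proton gradient built on the way drives ATP synthesis by complex V. Mitochondrial genes supply a few core subunits and nuclear genes all others, including every subunit of complex II. Heart, skeletal muscle and brown fat are known for a high content of this chain and for tissue-restricted isoforms of some complex IV subunits in place of the broadly expressed ones.

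Recovered depth ran from 12142765 to 15748051 fragments per library. Each OVA+PM2.5 library held transcripts of tissues other than lung. These were chiefly skeletal muscle genes in replicates 1 and 3, heart genes in replicate 2 and brown fat genes in replicate 3, with some brown fat genes raised in replicate 1 too. Skeletal muscle actin Acta1 stood at 11976, 0.384 and 199 FPKM in the OVA+PM2.5 libraries, against at most 0.861 in any OVA or Naive library, and muscle creatine kinase Ckm at 992, 53.3 and 25.6 against at most 3.92. The atrial light chain Myl7 stood at 0, 2650 and 95.9 FPKM in OVA+PM2.5, at 0.235, 154 and 3.38 in OVA and at 6.36, 6.58 and 130 in Naive. The cardiac heavy chain Myh6 peaked at 535 FPKM in OVA+PM2.5 replicate 2, against at most 30.5 in OVA and 24.1 in Naive. The brown fat genes Ucp1 and Cidea reached 1308 and 516 FPKM in OVA+PM2.5 replicate 3, against at most 0.776 and 10.7 in OVA and Naive. In OVA+PM2.5 replicates 1 and 2, Ucp1 stood at 22.0 and 2.10 FPKM and Cidea at 15.4 and 7.22 FPKM. In replicate 1, 10 of 10 skeletal muscle and 2 of 6 brown fat markers exceeded 10 times the highest OVA or Naive library. In replicate 2, 9 of 10 heart and 1 of 10 skeletal muscle markers did. In replicate 3, 5 of 6 brown fat, 4 of 6 adipocyte and 7 of 10 skeletal muscle markers did. Summed adipocyte markers stood at 684, 12.2 and 2619 FPKM in OVA+PM2.5, against at most 173 FPKM in any OVA or Naive library. Summed erythroid markers were above every OVA and Naive library in all 3 OVA+PM2.5 libraries, at 5503, 4482 and 14637 FPKM in OVA+PM2.5, 411, 1525 and 319 FPKM in OVA and 1197, 2481 and 2241 FPKM in Naive. Lung markers varied too: the surfactant gene Sftpc stood at 117, 7061 and 576 FPKM in OVA+PM2.5, against 3263 to 11469 in OVA and 11583 to 19607 in Naive, and 6 of 6 ciliated cell markers were at 0 in OVA+PM2.5 replicate 1. Naive replicate 1 carried thymus genes (Rag1 at 79.8 and Dntt at 51.8 FPKM). The part of these tissues and cells in the results that follow was not tested.

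Most respiratory chain genes stood higher in OVA+PM2.5 than in either other group. The 13 mitochondrial genes took 15.4%, 11.01% and 24.8% of fragments in the OVA+PM2.5 libraries, 12.98%, 8.21% and 5.64% in the OVA libraries and 4.62%, 5.39% and 4.25% in the Naive libraries. OVA+PM2.5 and OVA overlapped in this share, and both lay above every Naive library. The nuclear members took 0.819%, 0.991% and 1.94% in OVA+PM2.5, 0.347%, 0.424% and 0.322% in OVA and 0.471%, 0.396% and 0.444% in Naive. Here OVA+PM2.5 lay above all 6 other libraries, while OVA and Naive overlapped. The ratio of the 2 genomes differed as well. There were 18.8, 11.1 and 12.8 mitochondrial fragments per nuclear-member fragment in OVA+PM2.5, 37.4, 19.4 and 17.5 in OVA and 9.80, 13.6 and 9.57 in Naive, and all 3 OVA libraries lay above every Naive library. As shares of the FPKM sum, the mitochondrial genes took 44.1% ± 15.8 in OVA+PM2.5, 19.6% ± 4.12 in OVA and 14.2% ± 1.84 in Naive (SD, n = 3 each), and the nuclear members 1.28% ± 0.638 in OVA+PM2.5, 0.334% ± 0.0597 in OVA and 0.591% ± 0.1003 in Naive. The FPKM sum itself depends on a few abundant genes: the club cell gene Scgb1a1 alone took 0.00493%, 26.2% and 1.84% of it in OVA+PM2.5, 45.9%, 39.5% and 29.0% in OVA and 17.9%, 23.8% and 28.1% in Naive. In bulk lung, fewer cells of a type and less RNA per cell cannot be told apart.

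**Figure D1:**
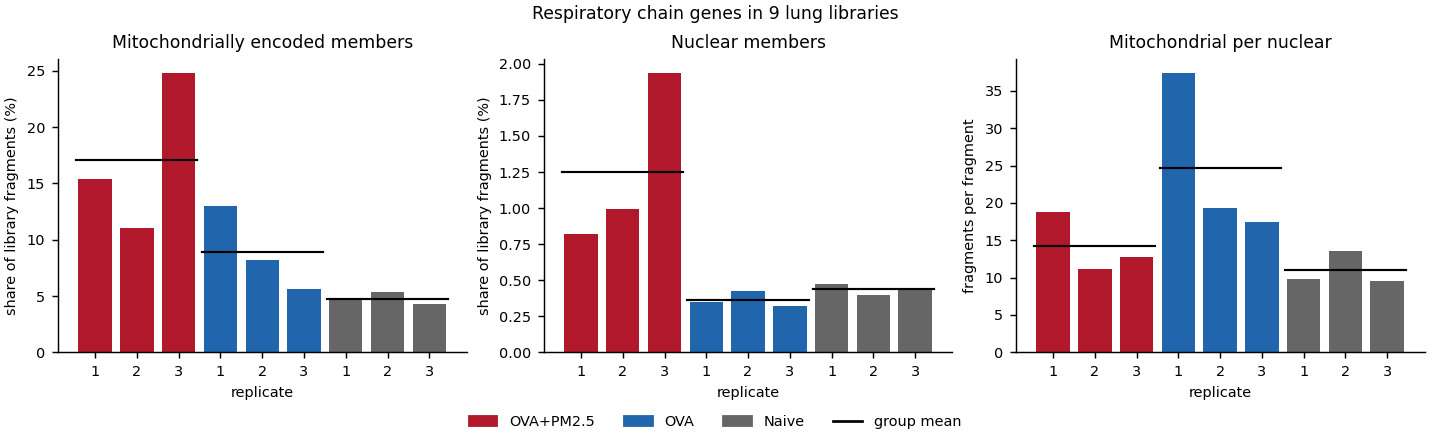
Share of library fragments taken by the 13 mitochondrial and the 46 nuclear members, and the ratio of the 2, in each of 9 libraries (bars) with group means (black lines). The nuclear share is at least 0.819% in the OVA+PM2.5 libraries and at most 0.471% in the others, while the ratio is at least 17.5 in OVA and at most 13.6 in Naive.

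With particles on top of ovalbumin, 3 of 58 members rose and 0 fell (limma on log2(FPKM + 0.5), Benjamini-Hochberg adjusted p under 0.05 over 12982 genes). The background was 0.193% of genes called higher and 0.0231% called lower. All 3 belong to complex V: the alpha and beta subunits of its catalytic head and the gamma subunit, its rotating shaft. All 58 members had a positive fold change, with a median of 1.30 on the log2 scale, against −0.23 over all genes tested. The median was 1.43 for the 46 nuclear and 0.84 for the 12 mitochondrial members. All 3 OVA+PM2.5 libraries lay above all 3 OVA libraries for 31 members, against backgrounds of 6.86% of genes higher and 20.1% lower without overlap. Those 31 were nuclear, and the groups overlapped for 12 of 12 mitochondrial members, in each of which OVA replicate 1 was the highest OVA library. At an unadjusted p under 0.05, 39 members stood higher and 0 lower, at backgrounds of 6.64% and 20.3%.

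These counts moved with the libraries in the fit. Without OVA+PM2.5 replicate 1, 2 or 3 the fit called 12, 24 and 12 members, and without any 1 of the OVA or Naive libraries it called 0. A fit of the OVA+PM2.5 and OVA libraries alone also called 0. For a single gene, the smallest p that an exact permutation of 3 and 3 libraries allows is 0.1.

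Against Naive, OVA+PM2.5 lungs had 19 of 58 members higher and 0 lower, at backgrounds of 1.53% of genes called higher and 5.59% called lower. They were 16 nuclear genes and the mitochondrial genes mt-Nd4l, mt-Nd5 and mt-Nd6. Fold changes were positive for 56 of 58 members, with medians of 1.69 in the mitochondrial and 1.02 in the nuclear genome, against −0.33 over all genes. The groups did not overlap for 12 of 12 mitochondrial and 22 of 46 nuclear members, all higher, at backgrounds of 6.83% higher and 33.2% lower. At an unadjusted p under 0.05, 37 members stood higher and 0 lower, at backgrounds of 6.09% and 28.5%. A fit of the OVA+PM2.5 and Naive libraries alone called 0 members and 0 genes in all. The main fit pools its spread over the groups, and OVA+PM2.5 was the most spread (group weight 0.347, against 1.34 for OVA and 2.15 for Naive). With these weights 13 members were called. Leaving out any 1 Naive library, or OVA replicate 2 or 3, gave 0 calls. Without OVA replicate 1 there were 2, and without OVA+PM2.5 replicate 1, 2 or 3 there were 10, 31 and 13. Each of the 16 nuclear calls was kept in 4 to 9 of 11 other settings. In the 9 fits with 1 library left out, each was kept in 1 to 4. The comparisons share libraries and are not independent of each other.

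Ovalbumin without particles was associated with opposite signs in the 2 genomes, none of them past the threshold. In OVA against Naive, limma called 0 of 58 members, at backgrounds of 0.0% higher and 0.0154% lower, and 2 members, mt-Nd5 and mt-Nd6, stood higher at an unadjusted p under 0.05 and 0 lower, at backgrounds of 4.41% and 6.94%. With voom on recovered fragments the number called was likewise 0. The main fit pools its spread over all 3 groups. At an unadjusted p under 0.05, a limma fit of OVA and Naive alone gave 20 members, beside 3377 genes in all. With 1 weight per group the counts were 18 members and 3387 genes. Neither fit called a member at the adjusted threshold. All 12 mitochondrial members had positive values (median 0.83), and 44 of 46 nuclear members had negative ones (median −0.38), against a median of −0.11 over all genes. The nuclear exceptions were Uqcrc2 at 0.09 and Sdha at 0.01. The gap between OVA and Naive was wider for nuclear members with short transcripts, as given below. Groups did not overlap for 6 mitochondrial members, all higher in OVA, and for 20 nuclear members, all lower, at backgrounds of 11.2% and 22.4%. The mitochondrial median relative to the Naive mean was 1.496, 0.79 and 0.18 in the OVA libraries, and the nuclear one −0.41, −0.08 and −0.60. Summed club cell markers were likewise highest in OVA replicate 1 and lowest in OVA replicate 3, at 197691, 143132 and 80575 FPKM in OVA against 43364, 65937 and 78968 FPKM in Naive, and ciliated cell markers stood at 278, 181 and 177 FPKM in OVA against 57.6, 108 and 67.9 FPKM in Naive. Their part in the mitochondrial values was not tested. Rescaling kept the mitochondrial median positive (0.43 to 0.95) and the nuclear median negative (−0.76 to −0.22), while the number of positive nuclear members ran from 0 with a common FPKM sum to 13 with quantile normalization.

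**Figure D2:**
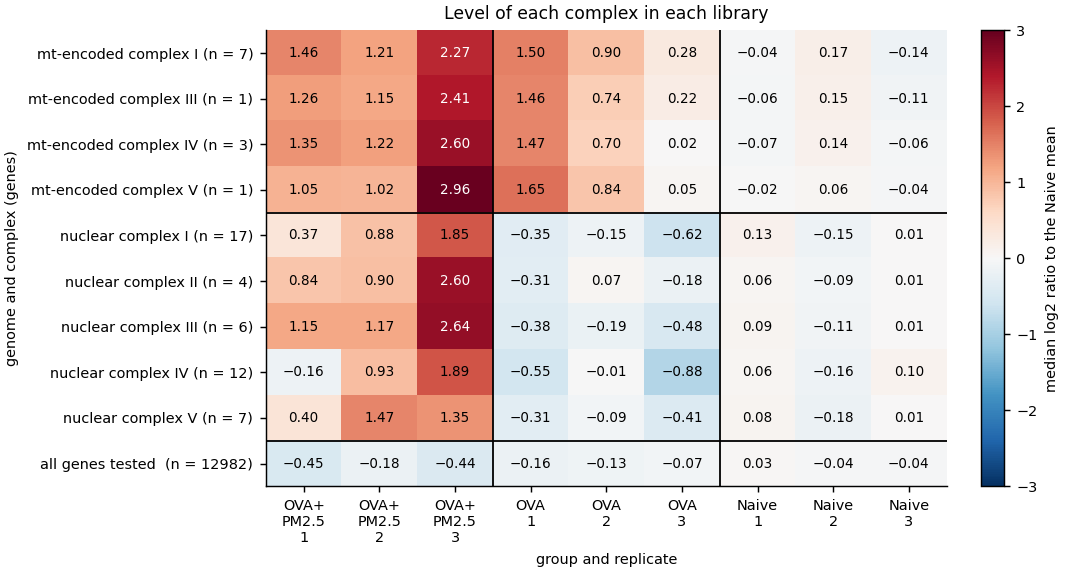
Median log2 ratio of each complex to its Naive mean (numbers and colour) in each library, by genome of origin, with all 12982 tested genes in the bottom row. OVA libraries are positive in the mitochondrial rows (0.02 to 1.65) and near or below 0 in the nuclear rows (−0.88 to 0.07), and OVA+PM2.5 replicate 3 has the highest value in every row of the chain except nuclear complex V.

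Among the mitochondrial genes, mt-Co1, the catalytic core of complex IV, was the most abundant. It stood at 49141, 31158 and 71398 FPKM in OVA+PM2.5, at 35634, 21658 and 14743 FPKM in OVA and at 13104, 15147 and 11882 FPKM in Naive. The groups overlapped between OVA+PM2.5 and OVA (log2 fold change 1.09 ± 0.54 SE, adjusted p 0.230), and every OVA+PM2.5 library lay above every Naive library (1.84 ± 0.54, adjusted p 0.0622). Cytochrome b of complex III, mt-Cytb, stood at 17347, 16088 and 38566 FPKM in OVA+PM2.5, at 19923, 12128 and 8441 FPKM in OVA and at 6974, 8050 and 6726 FPKM in Naive. Here OVA replicate 1 exceeded OVA+PM2.5 replicates 1 and 2, whereas for mt-Co1 it exceeded replicate 2 alone. The membrane-arm subunit of complex I mt-Nd1 stood at 15764, 14042 and 32611 FPKM in OVA+PM2.5, at 16404, 11094 and 6658 FPKM in OVA and at 5702, 6298 and 5247 FPKM in Naive. OVA replicate 1 again exceeded OVA+PM2.5 replicates 1 and 2, with all OVA values above all Naive values (0.89 ± 0.51, adjusted p 0.538). The proton-channel subunit of complex V mt-Atp6 stood at 150, 147 and 564 FPKM in OVA+PM2.5, at 228, 129 and 74.5 FPKM in OVA and at 70.9, 75.2 and 70.0 FPKM in Naive. OVA replicate 3 lay within the Naive range. OVA+PM2.5 replicate 3 was the highest of the 9 libraries for 11 of 12 mitochondrial genes, and the exception was mt-Nd5, highest in replicate 1.

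The subunit gene mt-Nd6 is encoded on the opposite strand from the other mitochondrial protein genes. It stood at 5250, 3803 and 7034 FPKM in OVA+PM2.5, at 5020, 3534 and 2481 FPKM in OVA and at 1549, 1794 and 1445 FPKM in Naive. It rose in OVA+PM2.5 against Naive (1.71 ± 0.41, adjusted p 0.0448). Against OVA its value was 0.56 ± 0.41 (adjusted p 0.398), the lowest among the mitochondrial members in that comparison, and OVA against Naive gave 1.15 ± 0.41 (adjusted p 0.359), the highest. Its neighbour mt-Nd5 lies opposite it, and whether the counting used strand is not given in the sources used here, so antisense reads cannot be told apart. The complex I subunits mt-Nd5 and mt-Nd4l also rose against Naive (1.91 ± 0.45, adjusted p 0.0443, and 1.76 ± 0.44, adjusted p 0.0473), and mt-Nd4l, with 28 to 141 fragments per library, shares a transcript with mt-Nd4. Most alternatives lost these 3 calls: of 11 other settings, 4 kept mt-Nd6, 3 kept mt-Nd5 and 2 kept mt-Nd4l, and of 9 fits with 1 library left out, 1 kept each (adjusted p up to 0.278 for mt-Nd6, 0.339 for mt-Nd5 and 0.149 for mt-Nd4l).

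Of the mitochondrial genes above 0, 5 were listed far below their genomic neighbours. Whereas mt-Nd1, mt-Nd2, mt-Nd4, mt-Nd5, mt-Nd6, mt-Cytb and mt-Co1 lay between 1445 and 71398 FPKM, mt-Co2, mt-Co3, mt-Atp6, mt-Nd3 and mt-Nd4l lay between 5.98 and 1062. In the GENCODE M21 transcripts, 99.0% to 99.9% of each of these 5 matched a nuclear pseudogene at 98% identity or more. The share was 63.6% for mt-Nd4, 31.3% for mt-Co1 and 0% for mt-Nd1, mt-Nd2, mt-Nd5, mt-Nd6, mt-Cytb and mt-Atp8. The matched pseudogenes had no row in the table. Levels of the 5 genes are therefore uncertain, and the handling of reads with several matches is not given in the sources used here. Their fold changes ran from 1.61 to 1.78 in OVA+PM2.5 against Naive and from 0.72 to 0.89 in OVA against Naive, beside 1.57 to 1.91 and 0.76 to 1.15 for the other 7.

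Complex V held the nuclear members with the smallest p-values in both comparisons of OVA+PM2.5, while in OVA against Naive the smallest was that of Ndufa5 in complex I. Its catalytic beta subunit Atp5b stood at 209, 207 and 364 FPKM in OVA+PM2.5, at 50.6, 64.7 and 57.98 FPKM in OVA and at 69.2, 53.9 and 65.1 FPKM in Naive. OVA+PM2.5 lay above all 6 other libraries, which overlapped among themselves. Atp5b rose against OVA (2.11 ± 0.28, adjusted p 0.0329) and against Naive (2.00 ± 0.28, adjusted p 0.0238). The alpha subunit Atp5a1 stood at 209, 200 and 316 FPKM in OVA+PM2.5, at 65.7, 79.9 and 66.2 FPKM in OVA and at 77.7, 67.6 and 70.4 FPKM in Naive. It rose against both (1.74 ± 0.25, adjusted p 0.0425 against OVA, and 1.71 ± 0.25, adjusted p 0.0249 against Naive). The gamma subunit Atp5c1, the rotating shaft, stood at 42.6, 50.5 and 45.1 FPKM in OVA+PM2.5, at 13.02, 18.6 and 15.1 FPKM in OVA and at 18.4, 15.3 and 18.4 FPKM in Naive. It rose by 1.55 ± 0.21 against OVA (adjusted p 0.0329) and 1.38 ± 0.21 against Naive (adjusted p 0.0255), and it had the narrowest spread among the OVA+PM2.5 libraries of these 3 genes.

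The other subunits of complex V were spread differently over the OVA+PM2.5 libraries. The membrane ring of complex V is built from subunit c, made by several genes that encode the same mature protein. Of these, Atp5g3 stood at 32.8, 79.3 and 50.5 FPKM in OVA+PM2.5, at 30.9, 32.1 and 21.9 FPKM in OVA and at 47.7, 36.5 and 40.4 FPKM in Naive. The groups overlapped in OVA+PM2.5 against Naive (0.30 ± 0.33, adjusted p 0.533), and every OVA value lay below every Naive value (−0.56 ± 0.33, adjusted p 0.551). Atp5g1 stood at 3.43, 8.97 and 1.34 FPKM in OVA+PM2.5, at 1.99, 2.31 and 1.51 FPKM in OVA and at 2.55, 2.08 and 2.81 FPKM in Naive. OVA+PM2.5 replicate 3, where brown fat genes peaked, was the lowest of the 9 for Atp5g1, while it was the highest for 41 of 46 nuclear members. In that library Atp5b and Atp5a1 were at their highest of the 9. The remaining 5 nuclear members peaked in OVA+PM2.5 replicate 2, the library with heart genes: Cox6a2, Atp5c1, Atp5o, Atp5g1 and Atp5g3. The peripheral stalk gene Atp5o was low in this table (0.383 to 3.20 FPKM, 24 to 193 fragments). Part of its transcript (48.8%) matches other genes, among them the further Atp5o identifier at 0, so its level is uncertain. The delta subunit Atp5d of the central stalk stood at 25.5, 68.5 and 107 FPKM in OVA+PM2.5, against 23.9 to 26.5 in OVA and 30.7 to 32.8 in Naive.

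Complex I is built from a membrane arm and a peripheral arm that carries the flavin and the iron-sulfur clusters. Of its 17 nuclear members, 5 rose against Naive, namely Ndufs1, Ndufa9, Ndufv1, Ndufa10 and Ndufv2, and 0 passed against OVA, where 14 had an unadjusted p under 0.05. The iron-sulfur subunit Ndufs1 stood at 13.2, 11.3 and 23.9 FPKM in OVA+PM2.5, at 4.12, 4.48 and 3.82 FPKM in OVA and at 4.99, 4.02 and 4.53 FPKM in Naive. It rose against Naive (1.66 ± 0.27, adjusted p 0.0293) and did not pass against OVA (1.77 ± 0.27, adjusted p 0.0518). The accessory subunit Ndufa9 stood at 26.0, 22.5 and 43.4 FPKM in OVA+PM2.5, at 8.35, 10.1 and 9.83 FPKM in OVA and at 10.8, 9.64 and 9.92 FPKM in Naive (1.497 ± 0.26 against Naive, adjusted p 0.0293). The flavin-carrying Ndufv1, where NADH is oxidised, stood at 12.6, 16.1 and 35.5 FPKM in OVA+PM2.5, at 4.04, 5.94 and 4.05 FPKM in OVA and at 6.11, 4.99 and 6.25 FPKM in Naive (1.67 ± 0.36 against Naive, adjusted p 0.0397). For these 3 genes, all OVA+PM2.5 libraries lay above all others.

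The small accessory subunits of complex I behaved less evenly. Ndufa5 had the smallest p among the nuclear members of the complex in OVA against Naive, with 19.8, 44.2 and 57.8 FPKM in OVA+PM2.5, 11.4, 15.5 and 9.31 FPKM in OVA and 22.3, 16.6 and 21.1 FPKM in Naive. Every OVA value lay below every Naive value (−0.73 ± 0.39, adjusted p 0.513), and OVA+PM2.5 replicate 1 lay within the Naive range. Ndufa1 stood at 21.6, 117 and 220 FPKM in OVA+PM2.5, against 39.5 to 55.8 in OVA and 63.4 to 82.2 in Naive, so that replicate 1 was the lowest of the 9 libraries and replicate 3 the highest. Across the 17, fold changes ran from 0.73 to 1.96 against OVA and from −0.07 to 1.67 against Naive.

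In complex II, which also serves the citric acid cycle, 2 of 4 members rose against Naive, and they were the catalytic pair Sdha and Sdhb. The iron-sulfur subunit Sdhb stood at 65.8, 60.1 and 144 FPKM in OVA+PM2.5, at 15.4, 24.1 and 19.5 FPKM in OVA and at 22.5, 20.2 and 23.5 FPKM in Naive. OVA+PM2.5 lay above all other libraries (1.89 ± 0.34 against Naive, adjusted p 0.0320, and 2.07 ± 0.34 against OVA, adjusted p 0.0518). The flavoprotein Sdha rose by 1.69 ± 0.40 against Naive (adjusted p 0.0451). The membrane anchor Sdhc stood at 31.6, 41.9 and 70.3 FPKM in OVA+PM2.5, at 19.4, 22.7 and 19.4 FPKM in OVA and at 28.3, 24.7 and 24.7 FPKM in Naive. Its 3 groups did not overlap in any pair, but no comparison passed (adjusted p 0.0850 against OVA and 0.0948 against Naive for OVA+PM2.5, and 0.694 for OVA against Naive).

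Complex III had the highest nuclear medians, 1.78 against OVA and 1.75 against Naive, and 4 of 6 members rose against Naive: Uqcrc1, Uqcrc2, Uqcrfs1 and Cyc1. The core subunit Uqcrc2 stood at 51.9, 37.7 and 89.7 FPKM in OVA+PM2.5, at 15.1, 19.6 and 16.3 FPKM in OVA and at 16.9, 14.7 and 16.2 FPKM in Naive (1.79 ± 0.31 against Naive, adjusted p 0.0293). The core subunit Uqcrc1 stood at 57.3, 44.7 and 135 FPKM in OVA+PM2.5, at 16.2, 17.9 and 14.5 FPKM in OVA and at 21.7, 19.2 and 19.9 FPKM in Naive (1.77 ± 0.37 against Naive, adjusted p 0.0385, and 2.09 ± 0.37 against OVA, adjusted p 0.0608). Cytochrome c1, Cyc1, stood at 28.8, 34.4 and 96.4 FPKM in OVA+PM2.5, at 9.003, 10.8 and 8.72 FPKM in OVA and at 13.5, 11.7 and 12.1 FPKM in Naive (1.84 ± 0.40 against Naive, adjusted p 0.0408). All 3 genes stood higher in every OVA+PM2.5 library than in any other. The small subunit Uqcrb, part of whose transcript (68.6%) matches other genes, overlapped between OVA+PM2.5 and the other groups, with 29.3, 56.7 and 118 FPKM in OVA+PM2.5, 23.6, 30.3 and 20.0 FPKM in OVA and 37.1, 31.4 and 41.4 FPKM in Naive.

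**Figure D3:**
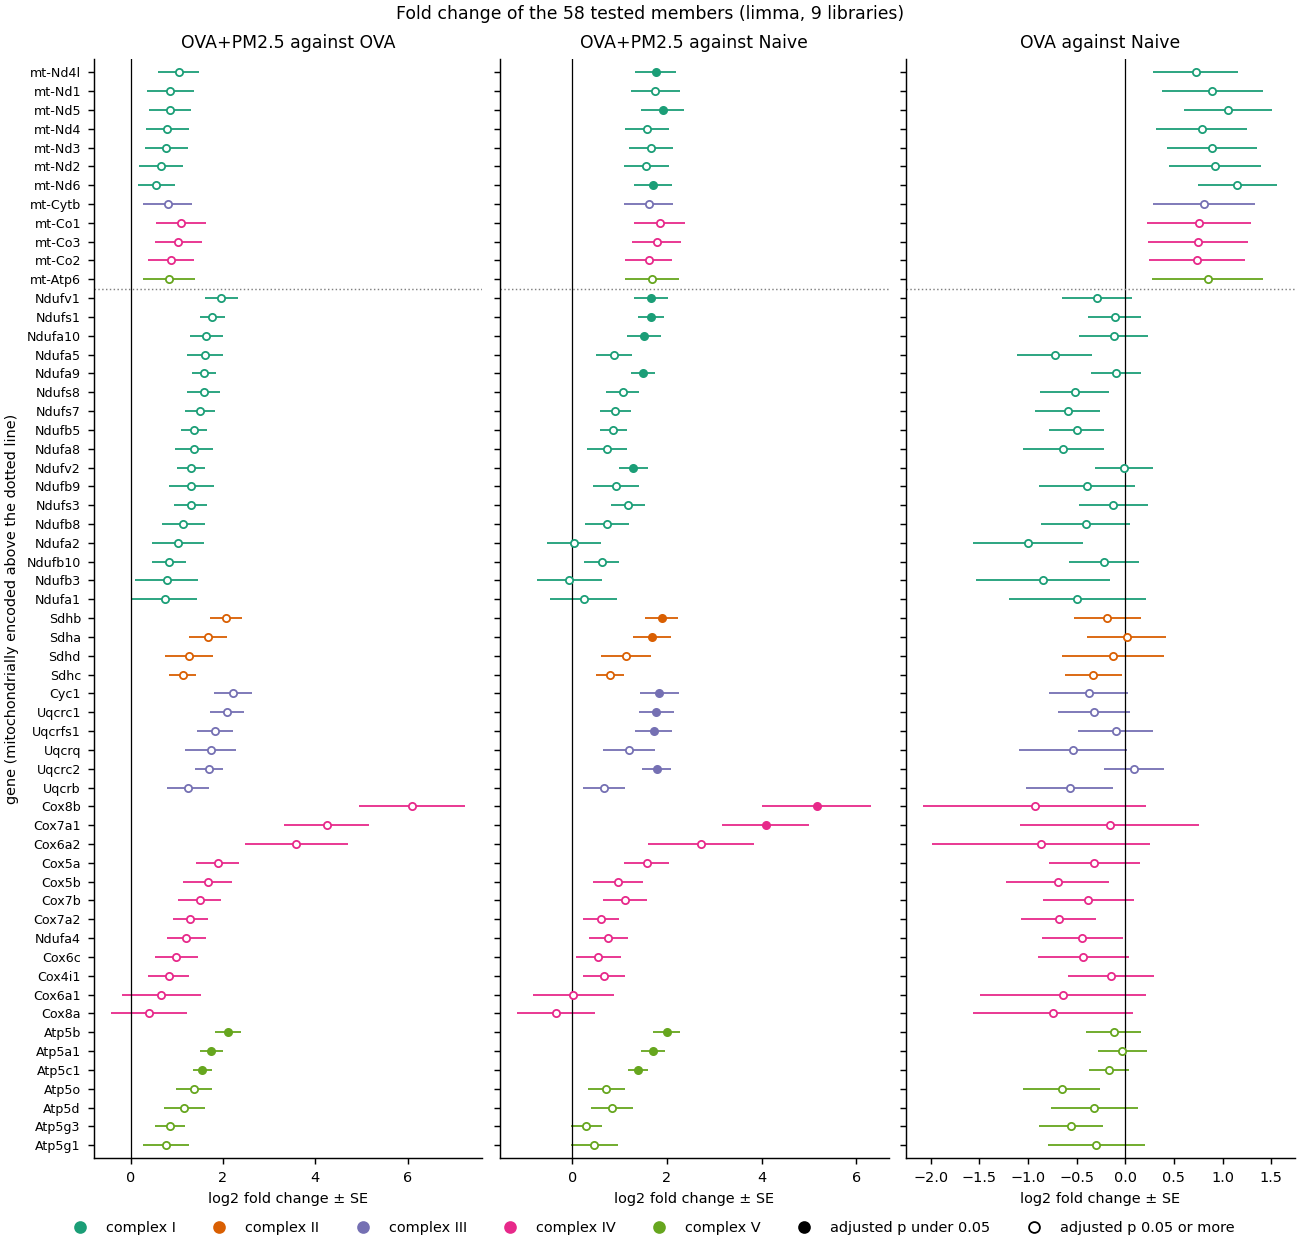
Log2 fold change with its standard error (points and bars, on an x axis of its own in each panel) for the 58 tested members in the 3 comparisons of a limma fit of 9 libraries, coloured by complex, with filled points for adjusted p under 0.05. Counts of filled points are 3, 19 and 0 from left to right, and Cox8b, Cox7a1 and Cox6a2 have the widest bars.

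Complex IV, cytochrome c oxidase, has paired nuclear subunits. Cox6a2, Cox7a1 and Cox8b are the forms known from heart and skeletal muscle, and Cox7a1 and Cox8b also from brown fat, while Cox6a1, Cox7a2 and Cox8a are the broadly expressed forms. The 200 bases before the start of transcription (RefSeq, GRCm38.p6, gene strand) are shown because the 2 members of a pair differ in where they are expressed. Capitals mark the NRF-1 palindrome (GCGC, any 2 bases, GCGC), searched on both strands, to which nuclear respiratory factor 1 is known to bind. Cox6a2 is not shown.
Cox6a1, chr5:115348959-115349158, minus strand: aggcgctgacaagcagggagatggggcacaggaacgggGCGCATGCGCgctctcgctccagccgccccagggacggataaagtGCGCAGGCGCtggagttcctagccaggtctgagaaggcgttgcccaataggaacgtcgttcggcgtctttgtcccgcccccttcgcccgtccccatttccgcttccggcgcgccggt
Cox7a1, chr7:30183971-30184170, plus strand: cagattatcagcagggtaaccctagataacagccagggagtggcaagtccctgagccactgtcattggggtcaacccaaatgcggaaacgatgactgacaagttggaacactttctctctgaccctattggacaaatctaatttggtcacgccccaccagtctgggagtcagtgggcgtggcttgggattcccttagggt
Cox7a2, chr9:79759854-79760053, minus strand: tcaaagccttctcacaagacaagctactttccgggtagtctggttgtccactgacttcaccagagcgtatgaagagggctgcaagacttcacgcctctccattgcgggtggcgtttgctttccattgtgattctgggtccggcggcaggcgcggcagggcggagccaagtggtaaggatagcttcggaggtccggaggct
Cox8b, chr7:140900447-140900646, minus strand: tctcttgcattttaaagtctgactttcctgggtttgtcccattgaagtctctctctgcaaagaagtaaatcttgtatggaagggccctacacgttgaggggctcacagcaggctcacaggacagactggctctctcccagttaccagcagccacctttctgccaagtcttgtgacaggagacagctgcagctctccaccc
Cox8a, chr19:7217617-7217816, minus strand: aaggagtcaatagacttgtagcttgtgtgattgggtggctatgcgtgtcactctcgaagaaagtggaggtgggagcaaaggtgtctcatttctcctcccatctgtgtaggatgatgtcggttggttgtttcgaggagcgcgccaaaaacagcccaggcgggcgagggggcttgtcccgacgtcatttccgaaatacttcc

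Of these 5 windows, Cox6a1 held the palindrome, at positions −162 and −117 from the start. Promoters were found for 34 of 46 nuclear members (37 windows), and 8 of the 37 (21.6%) held it, in Atp5c1, Cox6a1, Ndufa5, Ndufa8, Ndufv2, Sdha and Sdhd, against 4.61% of 32851 windows in all. The element TCAAGGTCA, known to bind estrogen-related receptors, was in 1 of 37 (2.70%, Atp5g3), against 0.277%. The shorter AAGGTCA, part of that element, was in the same window and in 3.18% of all windows. The ETS core CCGGAAG was in 3 of 37 (8.11%) against 6.29%, the E-box CANNTG in 18 of 37 (48.6%) against 58.2%, and the MEF2 motif in 0 of 37 against 0.414%. Both strands were searched for each, and a match is a description of the letters.

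Of the muscle forms, Cox7a1 and Cox8b lay higher in every OVA+PM2.5 library than in any OVA or Naive library, while Cox6a2 overlapped with both groups. Cox6a2 stood at 123, 357 and 20.4 FPKM in OVA+PM2.5, at 1.63, 24.4 and 9.50 FPKM in OVA and at 7.99, 14.4 and 24.7 FPKM in Naive. It was high in OVA+PM2.5 replicates 1 and 2. Replicate 3, which also held skeletal muscle genes (Acta1 at 199 FPKM), lay within the range of OVA and Naive. The fold change was 3.59 ± 1.12 against OVA (adjusted p 0.104) and 2.73 ± 1.12 against Naive (adjusted p 0.125). Cox7a1 stood at 11.7, 68.0 and 106 FPKM in OVA+PM2.5, at 0.791, 5.87 and 1.10 FPKM in OVA and at 0.811, 1.94 and 5.20 FPKM in Naive. It rose against Naive (4.08 ± 0.92, adjusted p 0.0427) and not past the threshold against OVA (4.24 ± 0.92, adjusted p 0.0768). Cox8b stood at 63.9, 147 and 704 FPKM in OVA+PM2.5, at 1.16, 11.3 and 0.573 FPKM in OVA and at 2.70, 2.27 and 15.9 FPKM in Naive. It rose against Naive (5.16 ± 1.15, adjusted p 0.0415), the highest fold change among the members, and stood at 6.09 ± 1.15 against OVA (adjusted p 0.0621). Of 11 other settings, 4 kept the Cox8b call and 4 the Cox7a1 call. Of 9 fits with 1 library left out, 1 kept the Cox8b call and 2 the Cox7a1 call.

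The broadly expressed forms did not pass in any comparison. Cox6a1 stood at 34.9, 116 and 649 FPKM in OVA+PM2.5, at 85.5, 108 and 72.0 FPKM in OVA and at 154, 124 and 134 FPKM in Naive. Cox8a stood at 21.5, 121 and 352 FPKM in OVA+PM2.5, at 83.6, 82.6 and 58.1 FPKM in OVA and at 155, 112 and 108 FPKM in Naive. For both genes OVA+PM2.5 replicate 1 was the lowest of the 9 libraries and replicate 3 the highest, and OVA lay below Naive without overlap. Cox7a2 stood at 44.4, 93.3 and 127 FPKM in OVA+PM2.5, at 31.0, 42.5 and 26.4 FPKM in OVA and at 56.3, 44.7 and 58.6 FPKM in Naive (−0.69 ± 0.38 for OVA against Naive, adjusted p 0.529). Per kilobase of the longest coding transcript, the ratio of Cox6a2 to Cox6a1 fragments was 1.69, 1.47 and 0.0151 in OVA+PM2.5, 0.00916, 0.108 and 0.0632 in OVA and 0.0249, 0.0559 and 0.0883 in Naive. The ratio of Cox8b to Cox8a was 1.55, 0.633 and 1.04 in OVA+PM2.5, 0.00723, 0.0714 and 0.00515 in OVA and 0.00905, 0.0106 and 0.0766 in Naive. That of Cox7a1 to Cox7a2 was 0.212, 0.587 and 0.672 in OVA+PM2.5, 0.0206, 0.111 and 0.0335 in OVA and 0.0116, 0.0350 and 0.0716 in Naive. Within OVA and within Naive, all 3 muscle forms were highest in the library with the highest Myl7, OVA replicate 2 and Naive replicate 3. Naive replicate 3 also held 173 FPKM of summed adipocyte markers, against 1.88 and 8.94 FPKM in Naive replicates 1 and 2. Whether tissue content accounts for these levels was not tested.

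**Figure D4:**
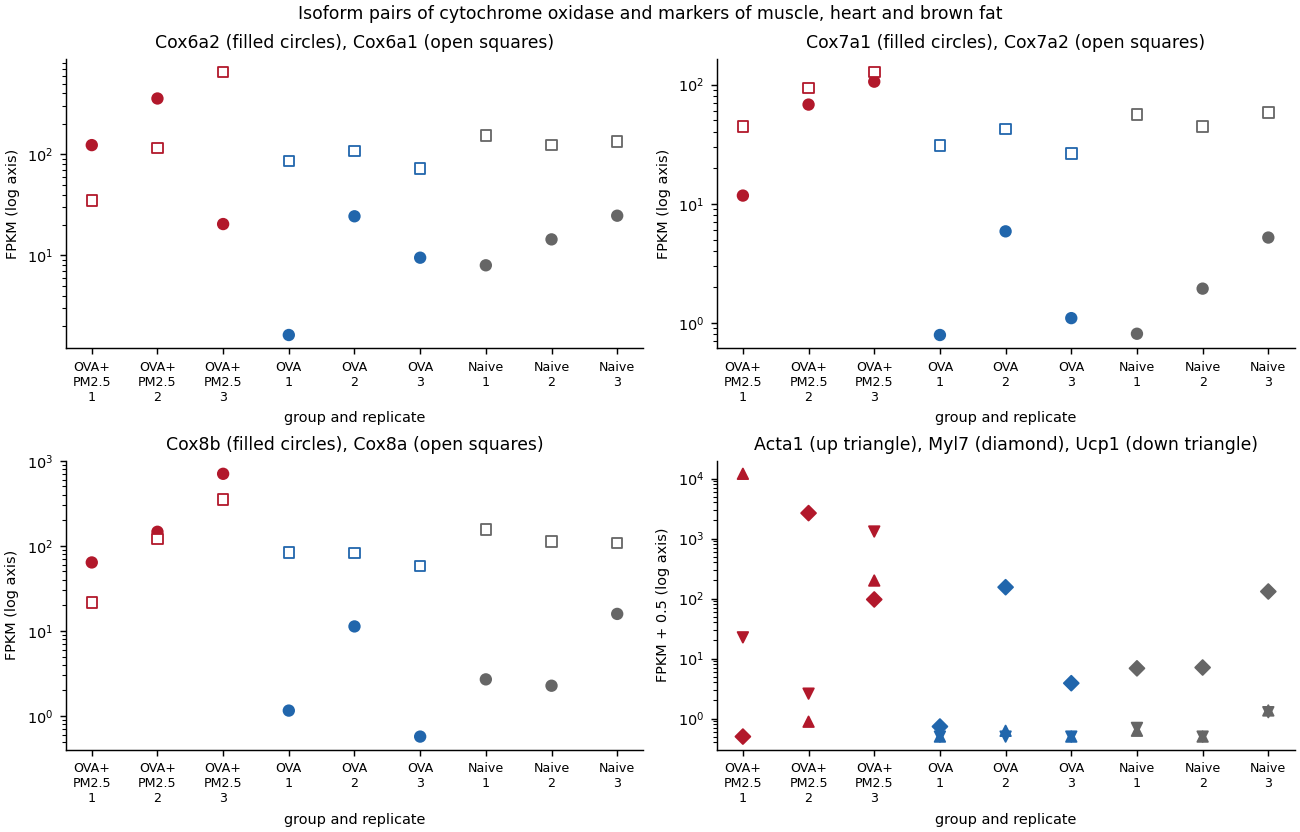
FPKM in each library of the muscle form (filled circles) and the broadly expressed form (open squares) of 3 complex IV subunits, and FPKM + 0.5 of the skeletal muscle gene Acta1, the atrial gene Myl7 and the brown fat gene Ucp1 (bottom right), all on log axes. Acta1 peaks in OVA+PM2.5 replicate 1, Myl7 in replicate 2 and Ucp1 in replicate 3, and among the circles Cox6a2 is highest in replicate 2 and Cox7a1 and Cox8b in replicate 3.

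The other complex IV members (Ndufa4, now counted with this complex, Cox4i1, Cox5a, Cox5b, Cox6c and Cox7b) had fold changes of 0.82 to 1.89 against OVA and of 0.55 to 1.57 against Naive, with 0 passing (unadjusted p under 0.05 for Ndufa4, Cox5a, Cox5b and Cox7b against OVA and for Cox5a and Cox7b against Naive). As a whole, nuclear complex IV stood at medians of −0.16, 0.93 and 1.89 relative to the Naive mean in the OVA+PM2.5 libraries, against −0.55, −0.01 and −0.88 in OVA. Nuclear complex III stood at 1.15, 1.17 and 2.64 in OVA+PM2.5, against −0.38, −0.19 and −0.48 in OVA.

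Members with short transcripts were lower in some libraries and, relative to the OVA mean, higher in the Naive ones. Of the 46 nuclear members, the 23 with a transcript under the median length of 1003 bases stood at a median of 0.35 relative to the OVA mean in OVA+PM2.5 replicate 1, against 1.22 for the 23 longer ones. In OVA+PM2.5 replicates 2 and 3 the values were 1.39 against 1.41 and 2.13 against 2.38. In OVA the shorter members stood at −0.05, 0.29 and −0.36, against −0.10, 0.20 and −0.10 for the longer ones. In Naive the shorter members stood at 0.61, 0.34 and 0.53, against 0.26, 0.04 and 0.24 for the longer ones. These members share a library and its preparation. Spearman's rho over them between length and the ratio to the OVA mean was 0.42, −0.03 and 0.04 in OVA+PM2.5. It was −0.19, −0.34 and 0.69 in OVA and −0.32, −0.35 and −0.69 in Naive. The part of fragment size or RNA quality in this was not tested. The lengths implied by the table were a median of 2.74 times the longest coding transcript for nuclear members, up to 8.17 times for Ndufv1, so FPKM levels of different nuclear genes are not set against each other here.

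Genes that work with the chain were taken as further lists. Their counts stand beside the shares of all genes given above: 0.193% called higher against OVA and 1.53% against Naive, and, at an unadjusted p under 0.05, 6.64% higher against OVA and 6.94% lower in OVA against Naive. Of 38 other subunits, 0 passed in OVA+PM2.5 against OVA (median 0.93, with 19 higher and 2 lower at an unadjusted p under 0.05). Against Naive 0 rose and 2 fell, Cox4i2 and Ndufa4l2, a count near the background of 5.59% of genes called lower. Cox4i2 is the form of subunit 4 known from lung and its vessels, and Ndufa4l2 is a relative of Ndufa4 induced by hypoxia. Cox4i2 stood at 0.782, 15.7 and 1.92 FPKM in OVA+PM2.5, at 8.71, 20.3 and 14.3 FPKM in OVA and at 42.8, 33.6 and 57.7 FPKM in Naive (−3.58 ± 0.81, adjusted p 0.0427). Ndufa4l2 stood at 3.72, 8.28 and 2.11 FPKM in OVA+PM2.5, at 4.16, 5.52 and 5.82 FPKM in OVA and at 15.4, 11.4 and 19.6 FPKM in Naive (−1.77 ± 0.41, adjusted p 0.0443). Both were lower in every OVA than in every Naive library too, without passing (adjusted p 0.479 and 0.278). In all, 18 of the 38 other subunits were lower in OVA without overlap, at a background of 22.4% of genes. Summed endothelial markers stood at 48.1, 465 and 88.8 FPKM in OVA+PM2.5, at 166, 484 and 313 FPKM in OVA and at 796, 545 and 794 FPKM in Naive, and their part in these values was not tested. The electron carrier cytochrome c, Cycs, had the smallest p against OVA, with 26.7, 40.5 and 95.01 FPKM in OVA+PM2.5, 8.27, 11.6 and 10.8 FPKM in OVA and 16.8, 13.1 and 16.0 FPKM in Naive (2.16 ± 0.41, adjusted p 0.0628). In OVA against Naive, 38 of 38 had negative values (median −0.49) and 0 passed, with Ndufa4l2 lower at an unadjusted p under 0.05.

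Of 41 tested assembly factors, 0 passed against OVA (median 0.51, 18 higher at an unadjusted p under 0.05) and 2 rose against Naive, the complex I factors Ecsit and Ndufaf4 (1.28 and 0.93, adjusted p 0.0415 and 0.0430). The smallest p against OVA belonged to Bcs1l, which inserts the Rieske protein into complex III, at 2.51, 2.39 and 3.15 FPKM in OVA+PM2.5 and 1.10, 0.822 and 1.08 FPKM in OVA (adjusted p 0.0518). In OVA against Naive 0 passed (3 lower at an unadjusted p under 0.05, near the 6.94% of all genes), and the complex III factor Uqcc2 had the smallest p (−0.93 ± 0.32, adjusted p 0.343). Among 25 genes that maintain and express mitochondrial DNA, 1 rose against OVA, the mitochondrial RNA-binding protein Fastk, at 7.05, 5.08 and 6.17 FPKM in OVA+PM2.5, against 2.54, 2.04 and 1.92 FPKM in OVA (1.30 ± 0.19, adjusted p 0.0425). Its mitochondrial form is known to be needed for the mRNA of mt-Nd6. It also rose against Naive, as did Lrpprc, which stabilises mitochondrial mRNAs (1.16 and 1.07, adjusted p 0.0293 and 0.0401). The DNA polymerase Polg had the smallest p of this list in OVA against Naive (−0.48 ± 0.21, adjusted p 0.429).

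The coactivators and nuclear receptors that raise respiratory chain genes in muscle and brown fat formed a list of 7, of which 6 passed the filter. Perm1, a muscle coregulator, rose to 46.2, 14.9 and 13.5 FPKM in OVA+PM2.5, against 0.623, 1.32 and 0.634 FPKM in OVA and 0.547, 0.681 and 0.862 FPKM in Naive (4.03 ± 0.44, adjusted p 0.0223 against OVA). It was the sole member of this list past the threshold against OVA. Against Naive, Perm1, Ppargc1a, Esrrg and Ppargc1b rose, by 4.18, 2.16, 1.35 and 1.92 (adjusted p 0.0156, 0.0156, 0.0296 and 0.0445). Ppargc1a, the coactivator PGC-1alpha, stood at 3.72, 2.20 and 4.73 FPKM in OVA+PM2.5, at 0.777, 0.774 and 0.724 FPKM in OVA and at 0.234, 0.569 and 0.355 FPKM in Naive. The 3 groups did not overlap. The estrogen-related receptor gene Esrra stood at 6.54, 8.91 and 16.4 FPKM in OVA+PM2.5, at 3.24, 2.67 and 2.449 FPKM in OVA and at 5.32, 4.77 and 3.94 FPKM in Naive, with OVA below Naive and OVA+PM2.5 above both without overlap (−0.65 ± 0.31 for OVA against Naive, adjusted p 0.463). Pprc1 overlapped in all 3 comparisons. These are also genes of skeletal muscle, heart and brown fat, and the part of those tissues was not tested.

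Of 8 tested carriers and channels, 0 passed in any comparison, while 4 stood higher against OVA, 3 higher against Naive and 0 either way in OVA against Naive at an unadjusted p under 0.05. The adenine nucleotide carrier Slc25a4, the heart and muscle form, stood at 239, 348 and 93.8 FPKM in OVA+PM2.5, at 40.6, 55.0 and 31.8 FPKM in OVA and at 65.7, 54.5 and 60.7 FPKM in Naive (2.25 ± 0.45, adjusted p 0.0689 against OVA, and −0.53 ± 0.45, adjusted p 0.681 for OVA against Naive). Within OVA+PM2.5 it was lowest in replicate 3, where Ucp1 peaked and skeletal muscle genes were also present. Of 77 mitochondrial ribosomal protein genes, 1 rose against OVA (Mrpl42, 1.64 ± 0.18, adjusted p 0.0223) and 2 against Naive (Mrpl42 and Mrpl16, 1.25 and 0.78, adjusted p 0.0249 and 0.0451), and the second count is near the background of 1.53%. Mrpl42 was even over the OVA+PM2.5 libraries, at 14.0, 12.5 and 15.3 FPKM, against 4.42, 4.57 and 3.44 FPKM in OVA. The list as a whole had medians of 0.33 against OVA and 0.00 against Naive, and in OVA against Naive 70 of 77 were negative (median −0.33), with Mrpl14 having the smallest p (−0.92 ± 0.34, adjusted p 0.368).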

How the data were processed

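Poly(A) RNA from 9 lung samples was sequenced with NEBNext Ultra libraries, per the labels. The authors deposited 1 table of FPKM per gene, with GRCm39 given as the build per the submitters' processing notes. Aligner, counting tool and strand setting stand as not given in the sources used here. Of 21884 genes, 13078 were named by the table, 8728 by GENCODE M21 through the Ensembl identifier, and 78 had no symbol. M21 and the RefSeq promoters (GRCm38.p6) are of another build than the table, so they served for names, transcript lengths, copies and sequences.

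Genes with at least 0.5 FPKM in at least 3 libraries (12982) were tested as log2(FPKM + 0.5), which understates the change of low genes, in 1 limma fit of 9 libraries with a variance trend (residual degrees of freedom 6, prior 2.79 at the median). The Benjamini-Hochberg adjustment ran over all 12982 genes, with a threshold of 0.05. Fragment counts were recovered per gene as the smallest whole numbers, to a tolerance of 0.001, in the ratio of its depth-scaled FPKM values. Such numbers were found for all 17298 of the 17298 genes (100%) detected in 2 libraries or more. For genes detected in few libraries a solution is nearly certain in advance, and a factor common to all counts of a gene would be lost. The counts supplied depth, shares and an added voom fit. That fit called 4, 17 and 0 members, and 19, 469 and 2 genes in all, in OVA+PM2.5 against OVA, OVA+PM2.5 against Naive and OVA against Naive. Copies were sought with BLAST+ 2.17.0 (98% identity, 50 bases or more). The fit was also run on simulated data in which each gene had the same spread in every group. The groups here differ in spread, so that run cannot vouch for the calls. Other tools were R 4.3.3, limma 3.58.1, Python 3.11.15, pandas 2.3.3 and matplotlib 3.10.9.

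Members and lists were chosen with earlier results of these data known. Library values are given for the isoform pairs, for the mitochondrial gene of highest mean FPKM per complex and mt-Nd6, for the nuclear member with the smallest p per complex and comparison, and for up to 10 called members by p. Of each further list the genes with the smallest p in OVA+PM2.5 against OVA and in OVA against Naive were named. Ndufa1, Atp5d, Atp5g1, Atp5o, Ppargc1a, Pprc1 and the called genes of further lists were named after their values were seen. Replicate numbers were not treated as pairs.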

Additional observations from a re-analysis of the deposited data

How the results depend on the processing

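Member counts in OVA+PM2.5 against OVA (3) were 1 without the filter, 14 and 35 with FPKM rescaled to a common sum over all and over nuclear genes, 8 with median-ratio scaling, 13 with quantile normalization, 0 in the 2-group fit, 0 with 1 weight per group and 0 with a replicate block, and ranged from 0 to 24 with 1 library left out. In OVA+PM2.5 against Naive (19) they were 11 with a pseudocount of 0.1, 6 without the filter, 12 with median-ratio scaling, 0 in the 2-group fit and 0 with the replicate block, and ranged from 0 to 31. In OVA against Naive the count was 0 under every alternative run. All-gene counts moved too. Against OVA, 28 became 12 without the filter, 98, 373, 97 and 138 (94, 360, 91 and 115 higher) under the 4 scalings in that order, 0 in the 2-group fit, 7 with weights and 0 with the block (0 to 3295 with 1 library left out). OVA+PM2.5 against Naive had 924 (198 higher), which became 488, 157, 1645, 275, 267 and 391 (145, 55, 204, 156, 165 and 209 higher) with a pseudocount of 0.1, without the filter and under the 4 scalings, then 0 in the 2-group fit, 473 with weights, 50 with the block and 469 with voom (0 to 4248). OVA against Naive had 2, which became 1 and 20 with pseudocounts of 0.1 and 1, 0 without the filter, 40, 28 and 18 with the common sums and quantile normalization, 895 in the 2-group fit, 817 with weights, 0 with the block and 37 in the 2-group fit without Naive replicate 1 (0 to 54). The voom fit and the last one were chosen after seeing the data. Where a library was left out, its group of 2 shared the pooled spread, and fewer samples entered the fit. The cause of other shifts was not tested.

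The median of all genes in the 3 comparisons, −0.23, −0.33 and −0.11, was −0.05, −0.49 and −0.44 with a common sum and 0.41, 0.04 and −0.36 with a common sum over nuclear genes. Fold changes of all 12 mitochondrial members stayed positive in every comparison and alternative. Over nuclear genes only, the nuclear share of the FPKM sum was 2.59% in OVA+PM2.5 and 0.413% in OVA, and with 1 library left out 0.923% to 1.52% in OVA+PM2.5, 0.309% to 0.367% in OVA and 0.534% to 0.629% in Naive. The mitochondrial share then ranged over 37.1% to 52.6%, 17.2% to 21.2% and 13.6% to 15.3%.

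Of 59 gene and comparison pairs, 6 turned sign in 12 values. Against Naive, Cox6a1 was −0.16 with a common sum, −1.09 without OVA+PM2.5 replicate 3 and −0.05 without Naive replicate 2 (−1.09 to 1.00 with 1 library left out), and Cox8a was 0.14 with the nuclear sum, 0.030 with median-ratio scaling and 0.74 without OVA+PM2.5 replicate 1 (−1.26 to 0.74). Against OVA, without OVA+PM2.5 replicate 3, Cox6a1 was −0.45 (−0.45 to 1.65) and Cox8a −0.52 (−0.52 to 1.48). In OVA against Naive, Cox6a2 was 0.10 without OVA replicate 1 (−1.67 to 0.10), and Cox7a1 0.28 and 0.12 without OVA replicates 1 and 3 and 0.40 without Naive replicate 3 (−0.87 to 0.40).

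Replicate numbers gave no clear sign of pairing: same-numbered deviations correlated at −0.171 to 0.278, with 3 of 9 pairs over 0.1. Of 9 libraries, 2 correlated best with their own number. With 3 libraries per group and transcripts of other tissues in single libraries, this check cannot decide whether libraries were paired. Depth limits mt-Nd3, mt-Nd4l, Cox6a2, Cox7a1, Cox8b and Atp5o, each under 100 fragments in some libraries, and with them the isoform ratios in OVA and Naive.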
